A study of Mus musculus with 24 samples.

Results

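Kidneys with moderate hydronephrosis were compared with kidneys with mild hydronephrosis, all of them from male mgb-/- (megabladder) mice. The comparison took 5 moderate and 7 mild kidneys, 12 of the 24 kidneys measured, and the grade in each sample's title chose them. The other kidneys were 6 controls from mgb+/+ males and 6 severe mgb-/- kidneys, which entered the filter on dim probes and the shared estimate of the spread and are otherwise given only as reference levels. Mice were young and age-matched, so the 2 grades share genotype and sex and differ in how much functional tissue (parenchyma) an ultrasound scan still showed. The mgb-/- bladder is atonic and fails to empty, hydronephrosis begins before birth, and it advances at different rates in different kidneys. Each whole kidney was snap frozen and its RNA was put on 1 single-colour array. Whether some mice gave both kidneys is not stated, so the p-values measure the spread between these kidneys. Pooled cell types also mean that fewer cells of a type cannot be told apart from less RNA per cell.

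Urine that cannot drain raises the pressure in the renal pelvis, the medulla thins, and tubule cells are stretched and lost. Injured tubules are known to secrete lipocalin and acute-phase proteins, fibroblasts and smooth muscle cells lay down matrix, and the urothelium that lines the pelvis proliferates. The distal nephron, from the thick ascending limb to the collecting duct, runs in part through that medulla. Levels below are log2 intensities relative to the 75th percentile of the same array, so 0 is that percentile, and differences are moderate minus mild on the log2 scale. Levels of different genes come from different probes and are not compared with each other. Kidneys carry the replicate numbers of their titles. A kidney's score for a gene list is the median, over the list, of its difference from the mean of the mild kidneys.

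On the arrays, 63.7% ± 4.36 (SD, n = 5) of probes stood well above background in moderate and 63.4% ± 1.24 (SD, n = 7) in mild kidneys, a difference within the spread between kidneys (two-sided exact permutation test, p = 0.808). Moderate kidney 3 had the highest share of all 24 arrays, 70.7%, and moderate kidney 4 had 58.6%. Severe kidney 4, which entered the shared estimate of the spread, had the lowest share, 55.1%. It also had the most outlier spots (660) and the highest median coefficient of variation between replicate spots (27.5%). Genes of the adrenal gland, which lies against the kidney, set 2 kidneys apart. Their score over 9 genes was 6.02 in mild kidney 4 and 5.72 in moderate kidney 1, and between -3.07 and 0.58 in the 10 others. *Cyp11b1*, the last enzyme of corticosterone synthesis in the adrenal cortex, named after its values were seen, stood at 5.06 and 4.86 in those 2 kidneys and at -1.08 or lower in the other moderate kidneys. Genes of adipose tissue were far lower in mild kidney 1 (score -7.76) and in moderate kidney 5 (score -3.21) than in the rest. The part of this adjacent tissue in the differences below was not tested, and counts without the 2 kidneys high in adrenal genes are given beside most of the list counts that they move by more than 1.5 times. Of the 4 Y-linked genes tested, 3 were lower and 1 higher on average, and *Ddx3y*, a Y-linked RNA helicase, differed by -0.36 (SE 0.12, unadjusted p = 0.0071 from limma).

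No gene met both an adjusted p under 0.05 in limma and a change of at least 2-fold. Of 27958 genes tested, 1866 (6.67%) had an unadjusted p under 0.05, with 590 (2.11%) higher and 1276 (4.56%) lower in moderate kidneys. At 2-fold as well, 280 genes were higher (1.00%) and 137 lower (0.490%). Lower values thus made up most of the small differences and higher values most of the large ones. The median difference over all genes was -0.016. The adjusted p of the genes named below was 0.498 or more, so the values that follow describe sizes and spread and not called changes. Genes whose 5 moderate and 7 mild values did not overlap numbered 94 (0.336%), of which 25 were higher (0.0894%) and 69 lower (0.247%).

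Of these, 15 (0.0537%) also had a 2-fold difference and an unadjusted p under 0.05, 6 higher (0.0215%) and 9 lower (0.0322%), and 4 of the 6 and 3 of the 9 have a symbol. *Wnt7a*, a secreted Wnt ligand of epithelia, stood at -2.72, -5.46, -5.00, -4.48 and -2.34 in moderate kidneys 1 to 5 and between -7.69 and -5.47 in mild kidneys (median -6.07). It was not well above background in any mild kidney and was in 4 moderate kidneys, so it was at least 3.21-fold higher, although moderate kidney 2 exceeded the highest mild kidney by only the last digit. *Has1*, a hyaluronan synthase, stood at -3.25, -4.74, -4.96, -4.25 and -4.87 against -5.83 to -5.17 in mild kidneys (median -5.54), a difference of 1.14 (SE 0.39). *Pcdh8*, a protocadherin, was at least 1.41-fold higher, and *Msr1*, the macrophage scavenger receptor, was higher by 1.20 (SE 0.52) on its brighter probe and by 0.23 on the other.

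Lower in all 5 moderate kidneys than in any mild kidney were *Nr4a2*, *Grin3a* and *Rad51ap2*. *Nr4a2*, an orphan nuclear receptor induced within minutes of a stimulus, stood at -1.18, -1.62, -1.32, -2.41 and -2.53 against -1.10 to 0.41 in mild kidneys (median -0.06). Its difference was -1.67 (SE 0.35, unadjusted p = 8.83e-05, adjusted p = 0.498 from limma), and a second probe gave -1.64. *Grin3a*, a glutamate receptor subunit, was above background in 5 mild kidneys and in no moderate kidney, so it was at least 2.03-fold lower. *Rad51ap2* differed by -1.55 (SE 0.52), with moderate kidney 2 at -4.55 and the other moderate kidneys between -2.34 and -1.67.

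Tubular injury genes were high in moderate kidneys 1, 3 and 4 and within or below the mild range in kidneys 2 and 5. *Lcn2*, the secreted iron-carrier lipocalin that serves as an injury marker, stood at 6.59 in moderate kidney 1, 4.29 in kidney 3 and 5.30 in kidney 4, and at -1.05 and -1.16 in kidneys 2 and 5. In mild kidneys it ranged from -0.87 to 1.27 with a median of -0.32. Moderate kidneys 1, 3 and 4 thus lay above every mild kidney and moderate kidneys 2 and 5 below every one. The mean difference of 3.02 (SE 1.08, adjusted p = 0.576) averages over that gap.

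*Havcr1*, the phosphatidylserine receptor of injured proximal tubules, stood at 1.81, -3.08, -0.05, 1.93 and -2.60 in moderate kidneys 1 to 5 and between -3.33 and -2.26 in mild kidneys (median -2.83). *Clu*, the chaperone clusterin, read 8.30, 5.94, 7.92, 8.46 and 6.04 against 5.93 to 6.78 in mild kidneys (median 6.25). For both, moderate kidneys 1, 3 and 4 were above the mild range and kidneys 2 and 5 inside it. *Krt20*, a keratin of umbrella cells that injured tubules also make, stood at 2.39, 0.51, 1.76, 1.86 and -0.96 against -2.09 to 1.48 (median -0.69).

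Over the 17 tubular injury markers tested, 15 were higher and 2 lower on average, 4 had an unadjusted p under 0.05 and the median difference was 0.42. That is 4 of 17 against 2.11% of all genes. The list holds *Lcn2*, by which the study grouped these kidneys, and *Havcr1*, which it reported from that grouping. The share is therefore not independent of the study's choice. Scores were 0.99, 0.73 and 1.05 in moderate kidneys 1, 3 and 4, and -0.19 and -0.50 in kidneys 2 and 5, against -0.33 to 0.19 in mild kidneys. Moderate kidneys 2 and 5 were the 2 moderate kidneys on the second slide. Among moderate kidneys this split and slide therefore cannot be told apart. Within the 3 slides the median difference of the list was 0.96, -0.36 and 0.66. The count was 0 without moderate kidney 1, 1 without kidney 4, 2 without kidney 3 and 7 without kidney 5. Leaving out the 2 kidneys high in adrenal genes also brought it to 0. Not every injury gene took part: *Vcam1*, an adhesion molecule, differed by -0.03, *Itgb6*, an integrin subunit, by 0.03, and *Vim*, vimentin, by 0.18.

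**Figure D1:**
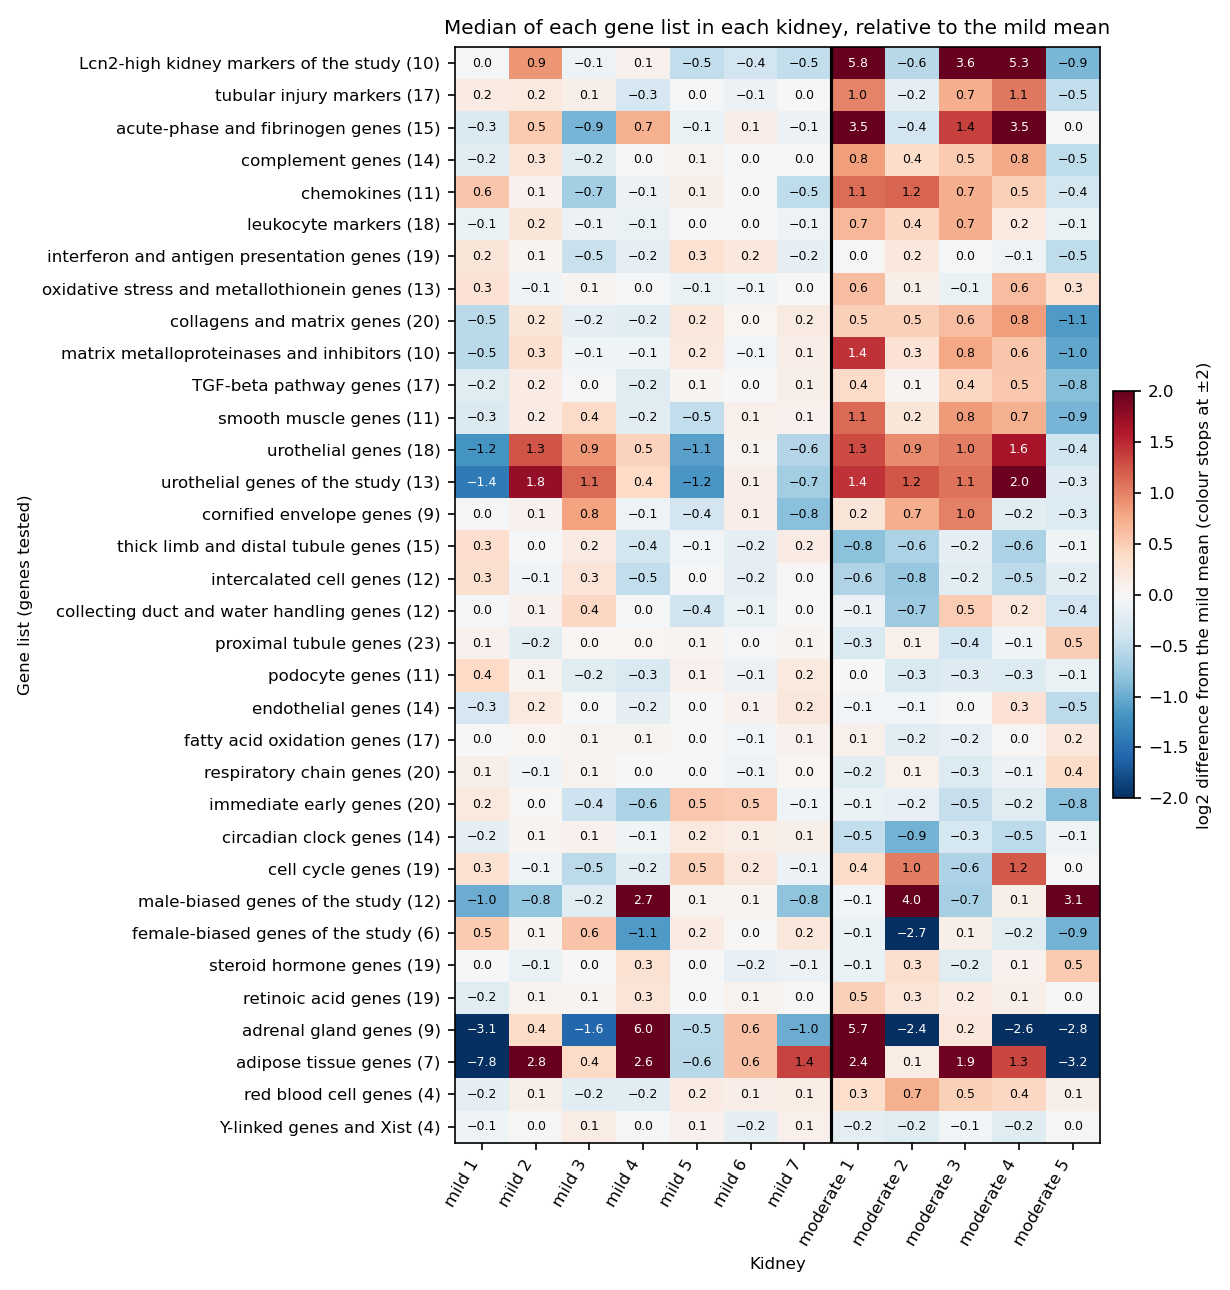
Score of each mild and moderate kidney (columns) for each gene list (rows), as the median log2 difference from the mean of the mild kidneys, with red above and blue below 0. Moderate kidneys 1, 3 and 4 are red across the injury and acute-phase rows (1.36 to 3.47 for acute-phase genes), while moderate kidneys 2 and 5 score -0.19 and -0.50 for injury markers, against a lowest mild score of -0.33, and are red for the male-biased genes (3.97 and 3.06).

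The 10 genes that the study itself used to mark kidneys high in *Lcn2* were all higher on average, 8 of them at an unadjusted p under 0.05, with a median difference of 2.79. The study chose this list on these kidneys, so its direction is not independent evidence. *Il1f6*, an interleukin of the IL-1 family (IL-36 alpha), stood at 1.85, -7.58, -1.79, 0.02 and -7.81 in moderate kidneys 1 to 5. No mild kidney was above background for it (highest -5.90), and it was at least 6.16-fold higher on average. *Sprr2g*, a small proline-rich protein of barrier epithelia, read 1.79, -2.69, 0.02, 1.76 and -5.07 against -6.12 to -1.49 in mild kidneys (median -4.27). *Sprr2f* was higher by 4.41 (SE 1.71). List scores of the 5 moderate kidneys were 5.79, -0.56, 3.57, 5.32 and -0.92. Within the 3 slides the median difference was 5.77, -0.63 and 3.55. Without moderate kidney 1, or without both kidneys high in adrenal genes, 3 of the 10 had an unadjusted p under 0.05, and 4 did without moderate kidney 4.

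By list score, acute-phase genes divided the moderate kidneys in the same way, though not every gene did. Scores were 3.47, 1.36 and 3.45 in moderate kidneys 1, 3 and 4, and -0.38 and 0.02 in kidneys 2 and 5. Mild kidneys scored between -0.93 and 0.71. Acute-phase genes encode plasma proteins that the liver secretes in inflammation and that injured tubules are known to make as well. Fibrinogen, the clotting protein, is built of 3 chains whose genes *Fga*, *Fgb* and *Fgg* lie side by side on chromosome 3. The 250 bases before each start are shown because the 3 genes were highest in the same moderate kidneys, 1 and 4. RefSeq entries of GRCm38.p6 were read, and capitals mark 2 motifs searched on both strands: TTCNNNGAA, the palindrome that STAT factors bind, and CTGGGAA, the interleukin-6 element of acute-phase promoters. The stretches are chr3:83025903-83026152 (plus strand) for *Fga*, chr3:83049864-83050113 (minus strand) for *Fgb* and chr3:83007474-83007723 (plus strand) for *Fgg*.
Fga: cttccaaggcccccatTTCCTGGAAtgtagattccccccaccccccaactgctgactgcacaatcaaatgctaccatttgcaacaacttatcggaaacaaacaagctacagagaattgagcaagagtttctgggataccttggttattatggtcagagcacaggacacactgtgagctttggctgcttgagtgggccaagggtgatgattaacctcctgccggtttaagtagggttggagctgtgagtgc
Fgb: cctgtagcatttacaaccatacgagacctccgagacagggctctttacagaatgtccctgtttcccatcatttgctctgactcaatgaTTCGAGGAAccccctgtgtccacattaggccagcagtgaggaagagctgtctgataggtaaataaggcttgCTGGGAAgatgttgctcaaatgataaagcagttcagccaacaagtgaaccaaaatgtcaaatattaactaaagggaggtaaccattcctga
Fgg: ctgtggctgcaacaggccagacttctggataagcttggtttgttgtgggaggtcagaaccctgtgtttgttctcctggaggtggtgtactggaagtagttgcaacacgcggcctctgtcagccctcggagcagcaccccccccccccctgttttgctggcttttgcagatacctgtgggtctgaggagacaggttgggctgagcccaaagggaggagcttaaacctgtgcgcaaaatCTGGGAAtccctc
*Fga* holds the STAT motif at position -234, *Fgb* holds it at -162 and the interleukin-6 element at -91, and *Fgg* holds the interleukin-6 element at -13. None of the printed matches overlap, and positions count from the start base as 0. Among 32851 promoter entries of 300 bases, 8.3% hold TTCNNNGAA and 11.1% hold CTGGGAA, so either match is common and a match is only a description of the letters.

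*Fgg*, the gamma chain, stood at 7.23, 0.84, 4.03, 6.73 and 2.06 in moderate kidneys 1 to 5 and between 1.26 and 1.86 in mild kidneys (median 1.71). *Fga*, the alpha chain, stood at 2.04, -1.75, -0.24, 1.39 and -1.15 against -1.67 to -1.0 (median -1.48). *Fgb*, the beta chain, named after its values were seen, stood at 4.28, -2.03, 0.41, 3.83 and -0.41 against -1.53 to 0.68 (median -0.24). All 3 chains were highest in moderate kidneys 1 and 4 and below the whole mild range in moderate kidney 2. In moderate kidney 3 *Fgb* was inside the mild range, and in moderate kidney 5 *Fgg* was above it. Their differences were 2.56 (SE 0.81) for *Fgg*, 1.49 (SE 0.45) for *Fga* and 1.68 (SE 0.80) for *Fgb*.

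*Saa1*, serum amyloid A, stood at 1.11, -1.32, -0.43, 3.05 and -1.29 against -2.01 to -0.91 in mild kidneys (median -1.60). *Serpina3n*, a secreted protease inhibitor, stood at 1.84, -2.70, 0.24, 1.03 and -3.56 against -3.93 to -1.56 (median -3.31). Moderate kidneys 1, 3 and 4 were above all mild kidneys for both. *Hp*, haptoglobin, differed by 1.61 (SE 1.03, unadjusted p = 0.131 from limma), with mild kidneys already between -1.73 and 3.57. *Hpx*, hemopexin, which clears free heme, was the 1 member lower on average (-0.93). Of 15 acute-phase genes, 14 were higher and 8 had an unadjusted p under 0.05, with a median difference of 1.49. *Fgg*, *Saa2* and *Itih4* are also among the study's markers of kidneys high in *Lcn2*, so the count is not independent of that choice. The count was 3 without moderate kidney 1 or without moderate kidney 4, and 5 without both kidneys high in adrenal genes.

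**Figure D2:**
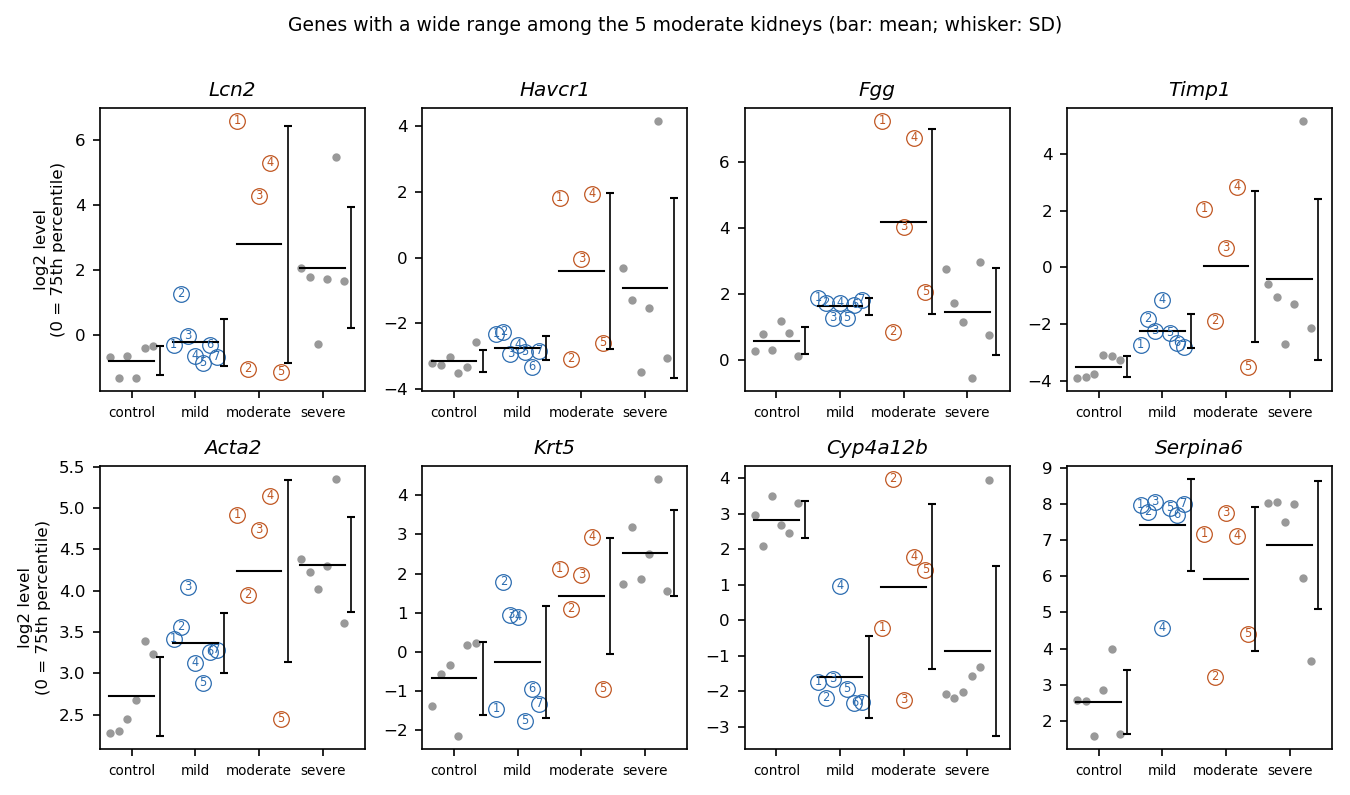
Log2 level of 8 genes in every kidney, by group, with 0 at the array's 75th percentile, bars at group means and whiskers of 1 SD. Mild and moderate kidneys are shown by their replicate number, and control and severe kidneys are grey points. *Lcn2* is between 4.29 and 6.59 in moderate kidneys 1, 3 and 4 and near -1 in kidneys 2 and 5, and *Serpina6* is lower in moderate kidneys 2 (3.21) and 5 (4.39) than in any mild kidney, with control kidneys between 1.57 and 3.99.

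Most inflammatory genes were higher on average, and how many had an unadjusted p under 0.05 rested on single kidneys. Of 11 chemokines tested 9 were higher and 2 had such a p, with a median of 0.90. That count was 6 without moderate kidney 5 and 1 without moderate kidney 1 or 4. *Ccl3*, which draws macrophages, stood at -3.99, -4.66, -5.42, -3.69 and -5.04 in moderate kidneys, 4 of them above every mild kidney, and was at least 2.11-fold higher. *Ccl8*, a monocyte chemokine, stood at -2.33, -0.77, -2.41, -1.54 and -1.95 against -5.21 to -1.60 in mild kidneys (median -3.96). Unlike *Lcn2*, both were above the mild median in every moderate kidney, kidneys 2 and 5 included.

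Of 14 complement genes 12 were higher (median 0.35), and *Cfi*, the protease that inactivates C3b, was the member with an unadjusted p under 0.05. It stood at 2.22, -1.58, 0.07, 2.89 and -1.31 against -1.52 to -0.51 (median -0.62). For complement genes the count was 5 without moderate kidney 5 or without severe kidney 5, 2 without mild kidney 1 or 2, moderate kidney 2 or 3 or severe kidney 4, and 0 without mild kidney 3 or 4, moderate kidney 1 or both kidneys high in adrenal genes. Leukocyte markers were higher for 15 of 18 genes (median 0.44), and *Mpo*, the neutrophil myeloperoxidase, was the member under 0.05 (at least 1.01-fold higher). For leukocyte markers the count was 5 without moderate kidney 5, 6 without severe kidney 5, 2 without control 5, mild kidney 2 or severe kidney 1 or 6, and 0 without mild kidney 3 or 7, moderate kidney 1 or 3 or both kidneys high in adrenal genes. *Csf1r*, the receptor that defines macrophages, differed by 0.00 (SE 0.11), with moderate kidneys between 4.18 and 4.58 and mild kidneys between 4.24 and 4.45. Leukocyte scores were 0.67, 0.42, 0.72, 0.19 and -0.13 in moderate kidneys 1 to 5, against -0.14 to 0.24 in mild kidneys. Interferon and antigen presentation genes had a median of -0.10, 8 of 19 higher and 11 lower, and *Isg15*, an interferon-induced ubiquitin-like protein, differed by -0.51 (SE 0.22).

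Matrix genes were low in moderate kidney 5. Of 20 collagens and matrix genes 18 were higher on average, 1 had an unadjusted p under 0.05 and the median difference was 0.18. Scores were 0.48, 0.48, 0.62 and 0.84 in moderate kidneys 1 to 4 and -1.13 in kidney 5, against -0.54 to 0.24 in mild kidneys. *Col1a2*, a fibrillar collagen chain, read 6.02, 6.24, 6.07, 6.76 and 4.17 against 5.34 to 6.03 (median 5.90). Without moderate kidney 5, 11 of the 20 had an unadjusted p under 0.05, all higher, and the median was 0.68. The count was 3 without severe kidney 5 and 0 without any single kidney among controls 1 to 4, mild kidneys 1, 4 and 6, moderate kidneys 1 to 4 and severe kidneys 1 to 3, and also 0 without both kidneys high in adrenal genes. *Fbln1*, the matrix glycoprotein fibulin, was the member under 0.05 with all kidneys in (0.67, SE 0.32).

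*Timp1*, the inhibitor of matrix metalloproteinases, followed the injury genes, at 2.07, -1.88, 0.70, 2.83 and -3.52 against -2.80 to -1.16 in mild kidneys (median -2.33). It is also among the study's markers of kidneys high in *Lcn2*. *Mmp3*, stromelysin, read 0.91, -3.86, -2.28, -1.64 and -5.60 against -5.72 to -3.45 (median -4.50). Both had an unadjusted p under 0.05, as the only ones of 10 metalloproteinases and inhibitors, whose median was 0.32. The count of 2 was 0 without moderate kidney 1, 3 or 4, mild kidney 1 or 6 or both kidneys high in adrenal genes, 1 without mild kidney 3, 5 or 7, and 4 without moderate kidney 5. *Timp2* and *Timp3*, the members with the highest signal, differed by 0.02 and -0.08. None of 17 TGF-beta pathway genes had an unadjusted p under 0.05 in either direction (median 0.15), while 3 were higher at that p without moderate kidney 5, with *Ccn2*, the connective tissue growth factor, at 5.89, 4.64, 5.53, 5.74 and 4.25 against 4.84 to 5.39.

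Of 11 smooth muscle genes 8 were higher and 4 had an unadjusted p under 0.05, with a median of 0.38. *Acta2*, smooth muscle actin, stood at 4.92, 3.95, 4.73, 5.15 and 2.44 against 2.88 to 4.04 in mild kidneys (median 3.28), and *Actg2*, the enteric isoform, differed by 1.97 (SE 0.84). *Myocd*, the coactivator that switches on the smooth muscle program, stood at -2.89, -3.44, -2.32, -3.31 and -3.82 against -4.91 to -3.27 (median -3.88). Moderate kidney 5 was lowest of the 12 for *Acta2* and *Tagln*. None of the 11 had such a p without moderate kidney 1, without moderate kidney 3, without mild kidney 5 or without both kidneys high in adrenal genes, 1 did without moderate kidney 4 and 2 did without mild kidney 4. Oxidative stress genes had 3 of 13 members higher at that p (median 0.28), but 1 without moderate kidney 1, 4 or 5, mild kidney 5 or both kidneys high in adrenal genes. *Hmox1*, heme oxygenase, stood at 4.70, 2.88, 2.47, 4.70 and 4.17 against 2.29 to 3.64 (median 2.91), above every mild kidney in moderate kidneys 1, 4 and 5.

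Urothelial genes were higher in 4 of the 5 moderate kidneys than in the average mild kidney. The urothelium is the stratified lining of pelvis and bladder, with keratin 5 and 14 in its basal cells and uroplakin plaques on its surface. *Krt14*, a basal keratin, stood at -0.74, -1.86, -0.78, -0.17 and -3.12 in moderate kidneys and from -3.75 to -2.01 in mild kidneys (median -2.72), a difference of 1.53 (SE 0.50, adjusted p = 0.555 from limma). *Krt5*, its basal partner, stood at 2.12, 1.09, 1.97, 2.93 and -0.96 against -1.78 to 1.79 (median -0.95). Moderate kidney 5 was at the mild median for *Krt5* and inside the mild range for *Krt14*. *Upk1a*, a uroplakin, stood at 4.44, 4.59, 4.15, 4.78 and 3.04 against 1.52 to 4.99 (median 3.32), so the mild kidneys spanned all of the moderate values.

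Of 18 urothelial genes 17 were higher, 9 had an unadjusted p under 0.05 and the median was 1.02. *Foxa1*, a transcription factor of the urothelium, differed by 1.33 (SE 0.56), *Krt19* by 1.49 (SE 0.59), and 4 uroplakins, *Upk1a*, *Upk1b*, *Upk2* and *Upk3a*, by 1.07 to 1.15. *Trp63*, which maintains basal cells, differed by -0.14, and *Krt7* by 0.07. Scores ran from -1.19 to 1.26 in mild kidneys and were 1.31, 0.94, 1.03, 1.65 and -0.40 in moderate kidneys, so the groups overlapped. Within the 3 slides the median was 2.16, 0.17 and 0.36, so the rise was large on the first slide only. For the study's urothelial genes it was 2.20, 0.31 and 0.66. The 13 urothelial genes of the study were all higher, 8 at an unadjusted p under 0.05 (median 1.13), and had been chosen by the study on these kidneys. *Upk1a*, *Upk1b*, *Upk2*, *Upk3a*, *Krt14*, *Krt18*, *Krt19*, *Grhl3* and *Foxa1* are on both lists. The result for the 18 genes is therefore not independent of that choice. Results for the 13 genes varied with the kidneys included. Their count was 1 to 3 when any of moderate kidneys 1 to 4 or mild kidneys 1, 5 and 7 was left out, and 3 without both kidneys high in adrenal genes. For the 18 genes the count was 1 without moderate kidney 1 or 4, 2 without moderate kidney 3 or mild kidney 5, 3 without mild kidney 1 or without both kidneys high in adrenal genes, 5 without moderate kidney 2 or mild kidney 7, 3 in a fit on the 12 kidneys alone and 5 with arrays scaled by the median. Their median stayed between 0.73 and 1.35 in all 38 alternatives.

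**Figure D3:**
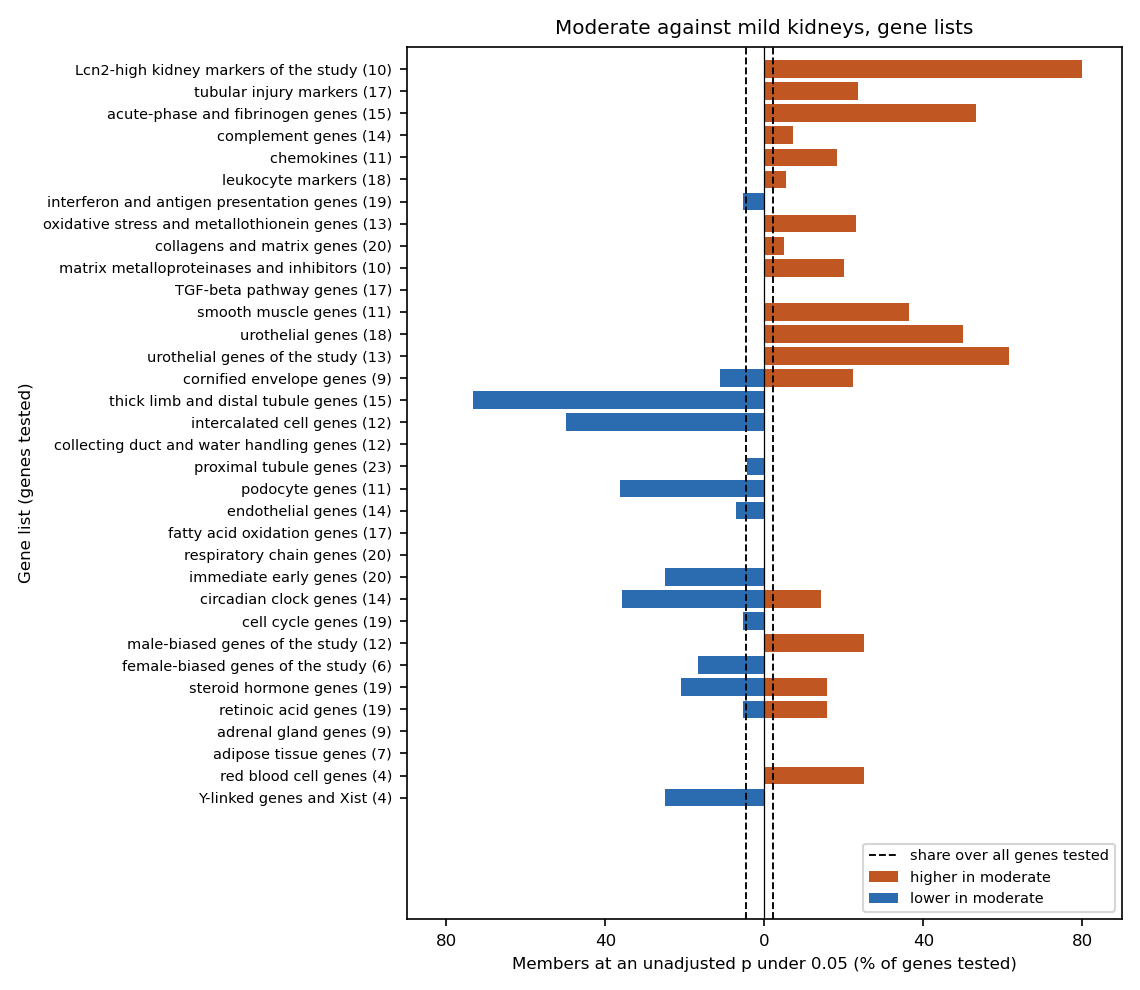
Share of each gene list (rows, with the number of genes tested) that had an unadjusted p under 0.05 and was higher (right, orange) or lower (left, blue) in moderate kidneys, in percent. Dashed lines mark the same shares over all genes, 2.11% higher and 4.56% lower, and 11 of 15 thick limb and distal tubule genes lie on the lower side.

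Genes of the thick ascending limb and distal convoluted tubule, which reabsorb salt, calcium and magnesium, were lower. Of 15 tested 14 were lower on average and 11 had an unadjusted p under 0.05, against 4.56% of all genes, with a median difference of -0.52. *Slc12a1*, the salt transporter of the thick limb that loop diuretics block, differed by -0.65, and *Kcnj1*, its potassium channel, by -0.49. *Slc12a3*, the thiazide-sensitive transporter, named after its values were seen, stood at 2.47, 2.83, 2.28, 1.99 and 3.40 against 2.94 to 3.91 in mild kidneys (median 3.29). Moderate kidneys 1 to 4 were below every mild kidney and kidney 5 was inside the mild range.

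*Calb1*, the calcium buffer of the distal convoluted tubule, stood at -0.35, -0.24, -0.63, -1.38 and 0.54 against 0.12 to 1.89 (median 0.78). *Pvalb*, parvalbumin, which marks the early distal convoluted tubule, stood at 2.14, 3.90, 2.93, 0.84 and 4.13 against 3.65 to 4.55 (median 4.35), and both of its probes gave about the same difference (-1.42 and -1.43). *Ppp1r1a*, a protein phosphatase inhibitor, stood at 1.64, 2.09, 2.95, 2.51 and 2.44 against 2.81 to 3.38 (median 3.00). For *Calb1*, moderate kidneys 1 to 4 lay below all mild kidneys, and for *Ppp1r1a* all but kidney 3 did. *Egf*, the growth factor that the distal tubule secretes into urine, differed by -0.52, *Trpm6*, the magnesium channel, by -0.72, and *Klk1*, kallikrein, by -0.44 (SE 0.19).

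*Umod*, uromodulin, the most abundant thick limb product, was an exception, at 8.0, 8.04, 8.32, 8.23 and 8.39 against 8.02 to 8.62 (difference -0.09, SE 0.12). Scores of the list were -0.82, -0.64, -0.19, -0.64 and -0.09 in moderate kidneys, with mild kidneys from -0.37 to 0.34. The mean score was -0.474 in moderate, -0.477 in control and -0.295 in severe kidneys. Moderate kidneys were thus at the control level on average, and mild kidneys stood above it. Within the 3 slides the median difference of the list was -0.85, -0.33 and -0.17. The count of 11 was 4 without moderate kidney 4, 6 without moderate kidney 1, and 7 without moderate kidney 2 or without both kidneys high in adrenal genes, while the median stayed between -0.65 and -0.46 in all 38 alternatives.

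Intercalated cells secrete acid or base in the collecting duct, and 10 of their 12 genes were lower. An unadjusted p under 0.05 was reached by 6, all lower, and the median was -0.50. *Atp6v1b1*, the proton pump subunit that marks these cells, stood at 0.06, 0.18, 0.39, 0.26 and 0.08 in moderate kidneys and between 0.66 and 1.32 in mild kidneys (median 1.05). The groups did not overlap (difference -0.80, SE 0.19, unadjusted p = 0.000348, adjusted p = 0.498 from limma). *Slc26a4*, pendrin, the bicarbonate exchanger of base-secreting cells, stood at 3.56, 3.42, 4.02, 3.71 and 4.51 against 4.09 to 5.14 (median 4.57). *Rhcg*, an ammonia channel, stood at 3.56, 3.69, 3.78, 3.90 and 4.31 against 4.20 to 4.93 (median 4.43). Moderate kidneys 1 to 4 were below every mild kidney for both.

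*Insrr*, an alkali-sensing receptor, differed by -0.77 (SE 0.22), *Slc4a1*, the basolateral exchanger of acid-secreting cells, by -0.78 and *Aqp6*, a vesicle channel, by -0.52 (SE 0.19). *Foxi1*, the transcription factor of the lineage, differed by 0.02 and *Car2*, carbonic anhydrase, by 0.12 (SE 0.13). The mean score was -0.468 in moderate, -0.46 in control and -0.352 in severe kidneys. Moderate kidneys were thus at the control level on average for this list, and mild kidneys stood above it. *Atp6v1b1* averaged 0.47 in control kidneys. Within the 3 slides the median was -0.47, -0.50 and -0.31. No alternative moved the count of 6 by more than 1.5 times.

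Water-handling genes of the collecting duct showed no member at an unadjusted p under 0.05 among 12 (median -0.12). *Aqp2*, the vasopressin-regulated water channel, stood at 4.71, 3.62, 5.73, 5.49 and 4.71 against 4.93 to 5.97 (median 5.36), a difference of -0.56 (SE 0.30, unadjusted p = 0.0732 from limma). Moderate kidneys 1, 2 and 5 were below every mild kidney and 3 and 4 inside the range. Control kidneys stood between 3.61 and 4.92 for *Aqp2*, so moderate kidneys 1, 2 and 5 were inside the control range.

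**Figure D4:**
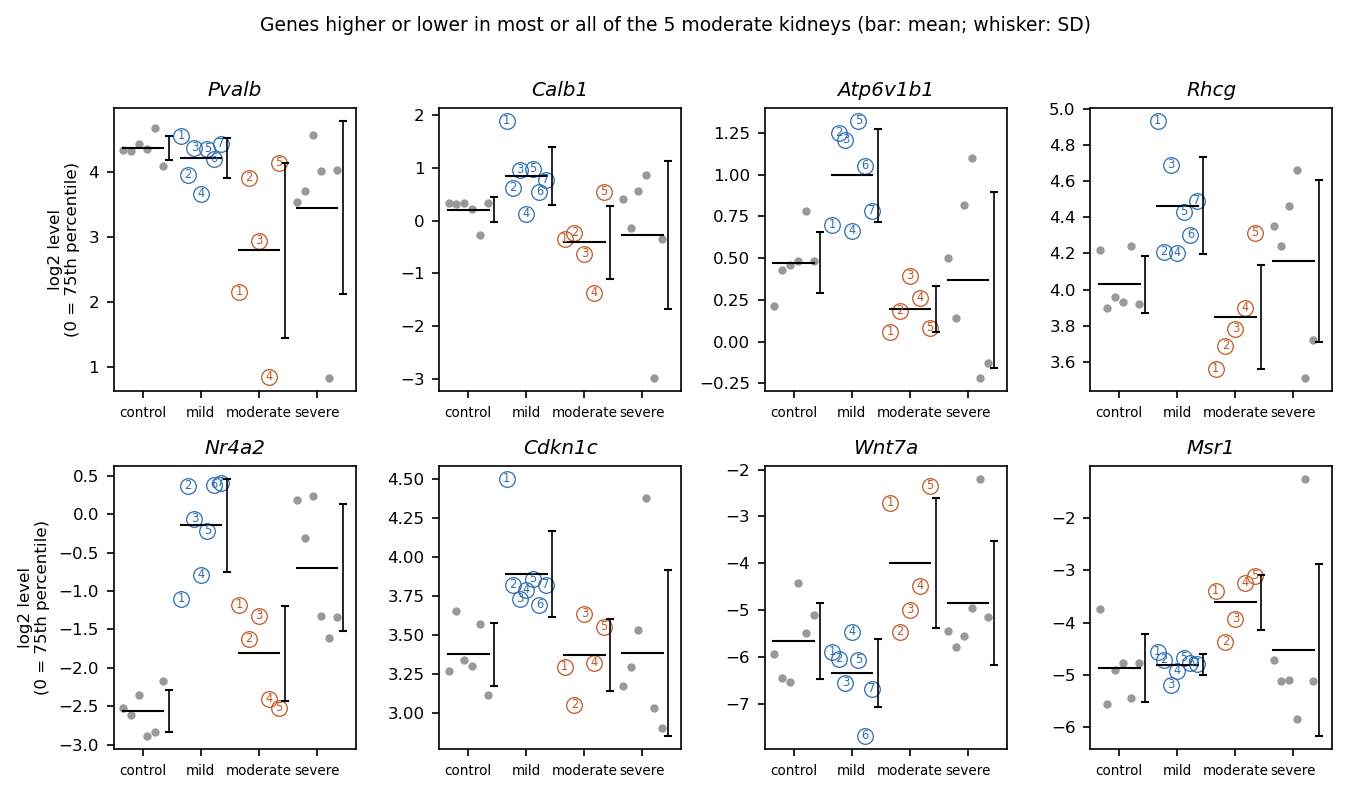
Log2 level of 8 genes in every kidney, by group, with 0 at the array's 75th percentile, bars at group means and whiskers of 1 SD. Mild and moderate kidneys are shown by their replicate number, and control and severe kidneys are grey points. *Atp6v1b1* and *Nr4a2* are lower in all 5 moderate kidneys than in any mild kidney, while *Calb1* is below the mild range in moderate kidneys 1 to 4.

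The proximal tubule, which makes up most of the cortex, showed a median of -0.001 over 23 genes, with 11 higher and 12 lower. *Kap*, the androgen-regulated kidney protein, differed by 0.01 (SE 0.19) and *Miox*, myo-inositol oxygenase, by -0.09 (SE 0.25). *Slc22a8*, an organic anion transporter, was the member with an unadjusted p under 0.05, at 0.36, 0.03, 0.87, -0.35 and 1.16 against 0.86 to 1.63 (median 1.31). Fatty acid oxidation genes (17, median -0.08) and respiratory chain genes (20, median -0.04) had no member with such a p in either direction. Respiratory chain scores were -0.24, -0.27 and -0.12 in moderate kidneys 1, 3 and 4 and 0.10 and 0.36 in kidneys 2 and 5, against -0.10 to 0.12 in mild kidneys.

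Of 11 podocyte genes, from the filtering cells of the glomerulus, 9 were lower and 4 had an unadjusted p under 0.05 (median -0.15). The mean score was -0.197 in moderate, -0.412 in control and -0.465 in severe kidneys, so moderate kidneys stood between control and mild kidneys on average. *Cdkn1c*, a cell cycle inhibitor of mature podocytes, stood at 3.29, 3.05, 3.63, 3.32 and 3.55 against 3.69 to 4.50 (median 3.82), without overlap. *Nphs1*, nephrin, stood at 0.50, 0.54, 0.56, 0.48 and 0.99 against 0.58 to 1.5 (median 1.11), with moderate kidneys 1 to 4 just below the mild range. *Wt1*, a transcription factor that podocytes need, differed by -0.25, and the count was 2 with arrays scaled by the median, and 2 without any single kidney among controls 1 to 4, mild kidneys 1, 2, 5 and 7 and moderate kidneys 1, 3 and 4. Of 14 endothelial genes, *Ehd3*, of glomerular endothelium, had an unadjusted p under 0.05 (-0.43, SE 0.16). Cell cycle genes were higher for 13 of 19 (median 0.41), none of them at an unadjusted p under 0.05, and *Ccnd1*, cyclin D1, differed by -0.37 (SE 0.17). The mitotic members *Mki67*, *Top2a* and *Plk1* differed by 0.38, 0.53 and 0.70 and the replication licensing members *Mcm2*, *Mcm5* and *Mcm6* by -0.21, -0.22 and -0.32, all named after their values were seen.

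Genes that differ between male and female mouse kidneys varied widely, and moderate kidneys 2 and 5 stood at the male end. For the 12 male-biased genes of the study, scores were 3.97 and 3.06 in moderate kidneys 2 and 5 and -0.06, -0.66 and 0.11 in kidneys 1, 3 and 4. Mild kidney 4 scored 2.69 and the other mild kidneys between -0.99 and 0.07. The control kidneys, also from males, scored between 3.5 and 3.89. Moderate kidneys 2 and 5 were thus near the control level, and moderate kidneys 1, 3 and 4 and most mild kidneys were far below it. *Cyp4a12b*, an androgen-induced fatty acid hydroxylase, stood at -0.22, 3.97, -2.23, 1.78 and 1.41 against -2.33 to 0.96 (median -1.92). *Slc7a13*, an amino acid transporter of the male proximal tubule, read 0.98, 5.31, 0.54, 1.33 and 5.53 against 0.89 to 5.26 (median 2.74), a difference of -0.16 (SE 0.98). Of the 12 genes 3 had an unadjusted p under 0.05, all higher (median 1.25), but 0 without moderate kidney 2, 5 without moderate kidney 3 or mild kidney 4, and 7 without both kidneys high in adrenal genes. Within slides the median was -0.27, 4.02 and -0.59, and both moderate kidneys with high scores were on the second slide.

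*Prlr*, the prolactin receptor and the 1 of 6 female-biased genes of the study with an unadjusted p under 0.05, stood at 3.24, 0.77, 4.50, 3.16 and 2.56 against 2.62 to 5.02 (median 4.80). *Serpina6*, the corticosteroid carrier, stood at 7.18, 3.21, 7.75, 7.13 and 4.39 against 4.56 to 8.08 (median 7.90). Moderate kidneys 2 and 5 were below every mild kidney for both. Of the female-biased genes 3 had such a p, all lower, without mild kidney 4, without moderate kidney 3 or without both kidneys high in adrenal genes, 2 did without moderate kidney 5 or severe kidney 6, and none was lower at that p without moderate kidney 2. The study chose both sets on these kidneys.

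Steroid hormone genes split by direction, with 4 of 19 lower and 3 higher where the unadjusted p was under 0.05 (median 0.15). Those lower were 2 without moderate kidney 1 or 2, and those higher 5 without mild kidney 4, moderate kidney 3 or both kidneys high in adrenal genes. *Hsd17b2*, which inactivates estradiol and testosterone, stood at -0.08, 1.01, -0.86, 0.28 and 0.20 against -2.21 to -0.08 (median -1.38), a difference of 1.38 (SE 0.33, unadjusted p = 0.000351, adjusted p = 0.498 from limma). *Akr1c18*, which reduces progesterone, stood at 5.49, 5.20, 2.39, 3.98 and 5.11 against 1.92 to 4.99 (median 2.64), the highest mild value being that of kidney 4. *Nr3c2*, the mineralocorticoid receptor through which aldosterone acts on the distal nephron, stood at -3.68, -3.37, -2.37, -3.71 and -3.13 against -2.83 to -2.05 (median -2.65). *Hsd11b2*, which keeps glucocorticoids off that receptor, differed by -0.43 and *Esr1*, an estrogen receptor, by -0.70.

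In the retinoic acid list 3 of 19 members were higher and 1 was lower at an unadjusted p under 0.05 (median 0.17). The 3 higher were 0 without moderate kidney 4 and 1 without moderate kidney 1, without mild kidney 1 or with slide as a block, and the 1 lower was 0 without moderate kidney 1, 3 or 4, mild kidney 2, 5, 6 or 7 or both kidneys high in adrenal genes. *Aldh1a1*, an enzyme that makes retinoic acid, stood at 2.66, 0.79, 1.07, 2.63 and 1.17 against 0.63 to 1.58 (median 0.77), with moderate kidneys 1 and 4 above the mild range. *Rara*, a retinoic acid receptor, differed by -0.28 (SE 0.13) and by 0.08 on its other probe. *Adh7* differed by 1.68 (SE 0.79) with all moderate values inside the mild range.

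Immediate early genes, which cells switch on within minutes of a stimulus, were mostly lower. Of 20 tested 16 were lower and 5 had an unadjusted p under 0.05, all lower, with a median of -0.37. The mean score was -0.37 in moderate, -1.76 in control and 0.02 in severe kidneys, so moderate kidneys stayed above control. Besides *Nr4a2*, *Nr4a1*, its close relative, stood at 4.64, 5.03, 3.59, 3.15 and 3.71 against 4.34 to 6.14 (median 5.77). *Arc*, a synaptic capsid-like protein also induced by growth factors, stood at 1.03, -0.70, 0.44, 0.18 and -0.70 against 0.21 to 1.84 (median 1.23). Moderate kidneys 3, 4 and 5 were below every mild kidney for *Nr4a1*, and kidneys 2, 4 and 5 for *Arc*. *Klf2*, a flow-responsive factor, differed by -0.39 (SE 0.12). *Fos*, the classical member, differed by 0.54, *Jun* by -0.47 (SE 0.27) and *Egr1* by -0.41, so the list did not move as a block. Without mild kidney 4, whose score was -0.64, or without both kidneys high in adrenal genes, 9 members had such a p.

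Clock genes moved in 2 directions. The circadian clock is a loop in which ARNTL (BMAL1) with CLOCK or NPAS2 drives *Per*, *Nr1d*, *Dbp* and *Bhlhe41* through E-boxes, while the NR1D repressors shut *Arntl* through ROR elements, so the 2 arms peak at opposite times of day. Promoters of both arms are shown with their elements in capitals, CACGTG for the E-box and ANTAGGTCA for the ROR element, searched on both strands. They are the 250 bases before the start of *Per1* (chr11:69098699-69098948, plus strand, the first of its 2 entries) and *Bhlhe41* (chr6:145865421-145865670, minus strand), and 30 bases after the start of *Arntl* (chr7:113207529-113207558, plus strand, the second of its 2 entries), in GRCm38.p6.
Per1: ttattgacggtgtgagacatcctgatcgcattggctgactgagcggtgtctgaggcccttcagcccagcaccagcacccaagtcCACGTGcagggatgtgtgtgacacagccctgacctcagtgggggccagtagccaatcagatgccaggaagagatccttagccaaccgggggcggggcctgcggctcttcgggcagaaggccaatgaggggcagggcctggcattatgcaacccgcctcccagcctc
Bhlhe41: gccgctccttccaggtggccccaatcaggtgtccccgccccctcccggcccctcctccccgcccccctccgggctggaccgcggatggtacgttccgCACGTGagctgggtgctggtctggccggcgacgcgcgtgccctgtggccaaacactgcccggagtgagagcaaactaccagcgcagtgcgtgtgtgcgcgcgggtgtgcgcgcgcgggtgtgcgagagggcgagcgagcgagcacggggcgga
Arntl: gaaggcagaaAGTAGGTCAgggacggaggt
The E-box lies at -166 in *Per1* and at -153 in *Bhlhe41*, and the ROR element at 28 in *Arntl*. The 250 bases before the start of the other *Per1* entry hold no CACGTG. Those before the start of the other *Arntl* entry hold no ANTAGGTCA. Of the 32851 promoter entries 7.15% hold CACGTG and 0.661% hold ANTAGGTCA.

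*Arntl* stood at -0.36, 0.31, -0.90, -0.40 and -0.68 in moderate kidneys and between -2.48 and -0.51 in mild kidneys (median -2.26), a difference of 1.39 (SE 0.42, adjusted p = 0.522 from limma). *Npas2*, its partner, stood at -5.47, -3.83, -4.92, -5.74 and -5.80 against -8.04 to -5.78 (median -6.11). On the other arm, *Dbp*, an output transcription factor, stood at 4.01, 4.17, 4.35, 4.12 and 4.89 against 4.35 to 5.91 (median 5.63). *Arntl* was above the mild median in every moderate kidney and *Dbp* below it in every one. Mild kidneys 1 and 4 stood apart from the other mild kidneys, with *Arntl* at -0.52 and -0.51, as high as in moderate kidneys.

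*Per1*, named with *Per2* and *Bhlhe41* after their values were seen, stood at 4.14, 3.38, 4.32, 4.04 and 3.74 against 3.69 to 5.60 (median 5.14), and *Per2* at -0.64, -2.36, -1.12, -0.83 and -0.28 against -0.52 to 0.28 (median -0.08). *Nr1d2*, a repressor of *Arntl*, stood at 0.72, 0.65, 0.74, 0.83 and 1.15 against 0.84 to 1.63 (median 1.56). Moderate kidney 2 was the most extreme of the 5 for *Arntl*, *Npas2*, *Per1*, *Per2*, *Nr1d2* and *Bhlhe41*. *Bhlhe41* differed by -0.58 (SE 0.24) on its brighter probe and by 0.22 on the other. Of 14 clock genes 5 were lower and 2 higher at an unadjusted p under 0.05, with a median of -0.47, and within the 3 slides the median was -0.39, -0.72 and -0.33. Without moderate kidney 2 the count lower was 2 and the count higher 1, without moderate kidney 5 it was 8 and in the fit on the 12 kidneys alone 9. The hour at which each kidney was taken is not given in the sources used here, so grade and hour of day cannot be told apart for these genes.

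Moderate kidneys differed more from each other than mild kidneys did. The SD between kidneys was larger in the moderate group for 19635 of 27958 genes (70.2%). Its median over genes was 0.38 in moderate and 0.27 in mild kidneys, against 0.27 in control and 0.48 in severe kidneys, and the median ratio of moderate to mild was 1.32. A limma test on absolute deviations from the group means gave 16 genes wider in moderate kidneys at an adjusted p under 0.05 (0.0572%) and 0 narrower. At an unadjusted p under 0.05, 3095 genes were wider (11.1%) and 240 narrower (0.858%). With slide as a block 0 genes passed limma's test (lowest adjusted p 0.453).

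Of the 16 genes 14 have a symbol. *Eif4ebp3*, a translation repressor, had SDs of 0.21 (n = 7 mild) and 1.19 (n = 5 moderate), and stood at 4.80, 2.32, 2.64, 4.79 and 3.05 against 2.74 to 3.29 in mild kidneys (adjusted p = 0.00412 from limma). *Aldh1a7*, an aldehyde dehydrogenase, stood at 1.86, -0.09, -0.16, 2.64 and 0.35 against -0.34 to 0.46 (adjusted p = 0.0114). Moderate kidneys 1 and 4 were the high ones for both, as for *Fga* (adjusted p = 0.0197) and *Aldh1a1* (0.0489). *Cxcl17*, a mucosal chemokine that no mild kidney showed above background, stood at -0.93, -7.36, -2.83, -0.81 and -6.76 (adjusted p = 0.0447), and *Lcn2*, *Fgg* and *Cfi* followed with adjusted p = 0.0489 each.

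*Txk*, a kinase of T cells, and *Tmem150a* had the same spread result with hardly any difference in mean (0.00 and -0.25). *Txk* stood at -2.20, -3.73, -1.69, -2.20 and -3.91 against -2.95 to -2.56, so moderate kidneys 1, 3 and 4 were above and 2 and 5 below the mild range. *Tmem150a* had the opposite order, at 1.55, 2.75, 1.37, 1.55 and 2.61 against 2.07 to 2.41.

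By list, the SD was larger in moderate kidneys for 20 of 20 respiratory chain genes (median 0.27 against 0.11), 23 of 23 proximal tubule genes (0.45 against 0.21), 20 of 20 collagens and matrix genes (0.87 against 0.38) and 17 of 17 fatty acid oxidation genes (0.36 against 0.26), against 70.2% of all genes. It was larger for 3 of 11 podocyte genes, 5 of 13 urothelial genes of the study and 7 of 20 immediate early genes. The proximal tubule and respiratory chain lists, whose median differences were near 0, were thus among those with a larger SD in every member. Few of those members were wider at an unadjusted p under 0.05 in limma's test of spread, against 11.1% of all genes. The counts were 0 of 20 respiratory chain, 2 of 23 proximal tubule and 2 of 17 fatty acid oxidation genes, and 6 of 20 collagens and matrix genes.

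Moderate kidney 3 lay farthest from the rest of its group, with a median absolute distance of 0.43 over all genes, followed by kidney 5 with 0.35, and the mild kidneys lay at 0.13 to 0.25. Without moderate kidney 3, 335 genes were wider in moderate kidneys at an adjusted p under 0.05, and without severe kidney 5, 787.

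**Figure D5:**
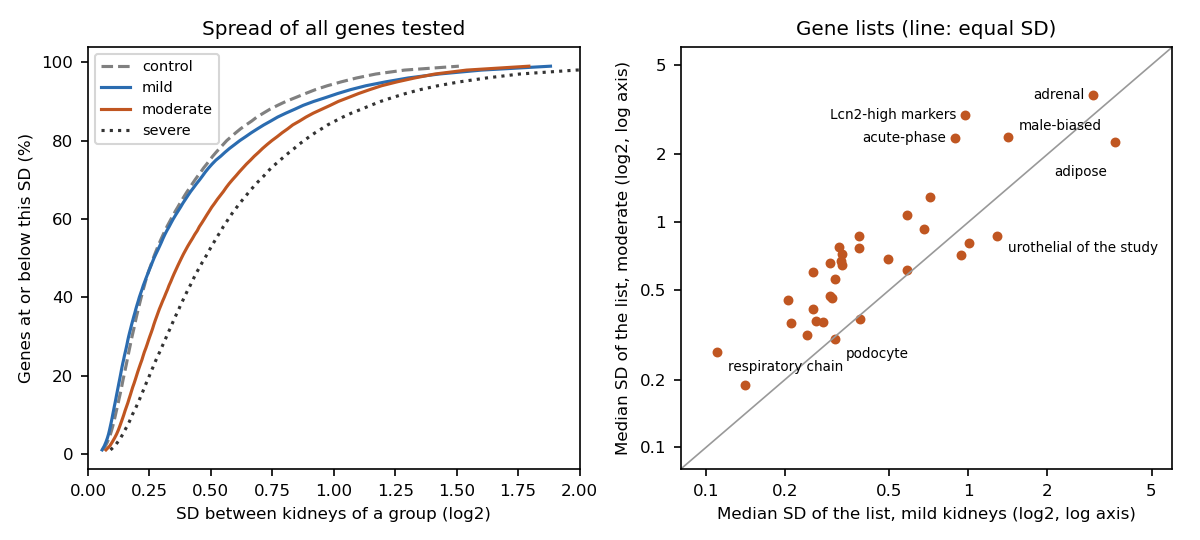
Left, share of genes (percent) at or below a given SD between kidneys of a group, in log2 units, for the 4 groups. Right, median SD of each gene list in mild (x) and moderate (y) kidneys on log axes, with a line of equal SD; most lists lie above it, the Lcn2-high markers of the study at 2.99 against 0.97, and the urothelial genes of the study below it at 0.87 against 1.29.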

How the data were processed

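Agilent single-colour mouse arrays of 24 kidneys were read. For each array the authors deposited spot intensities from the scanner software (Feature Extraction 10.10), background-subtracted and not normalized between arrays, and a table of intensities they had normalized by a method not given in the sources used here. The deposited processed intensity was converted to log2 and each array's 75th percentile was subtracted. Outlier spots were left out, spots of a probe were averaged, probes had to stand well above background on 5 or more arrays, and the brightest probe stood for its gene. RefSeq accessions (GRCm38.p6) named 16492 of the 27958 genes.

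Groups were compared in 1 model of 4 groups over 24 kidneys (20 residual degrees of freedom) with limma 3.58.1 in R 4.3.3 and Benjamini-Hochberg adjustment. Spread was tested with limma on scaled absolute deviations from the group mean, and the steps were tested on simulated data. Where no array of a group was above background, the fold is a lower bound that sets the group at the lowest signal its arrays measured above background, or at its own signal where higher. Scores and counts describe the lists, with no set test. Exact permutation used scipy 1.17.1, and figures matplotlib 3.10.9. The number of arrays limits the precision.

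The comparison, the 34 gene lists and the tests were chosen with earlier results of these data known. Named genes are the 10 largest differences in each direction among 2-fold, non-overlapping genes with a symbol and an unadjusted p under 0.05; in each list the 4 members with the lowest p under 0.05 and the 2 brightest; the 10 lowest p for spread and under array quality weights; and *Lcn2*, *Havcr1* and *Krt20*. Other list members named in the text were chosen after their values were seen. In all 38 alternatives were tried, 3 of them added after the data were seen. Some genes that the list counts include are not reported here.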

Additional observations from a re-analysis of the deposited data

Results flagged for a closer look

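In 380 tests of the gap between the most extreme kidney of a group and its nearest neighbour, 38 kidneys' values stood apart by Dixon's criterion, where chance gives about 5% of such tests. The genes overlap in what they measure, so the tests are not independent.

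Mild kidney 4 accounted for 19 of them. It was highest of the 7 mild kidneys in its scores for adrenal genes (6.02), male-biased genes (2.69) and steroid hormone genes (0.31) and lowest for female-biased genes (-1.14). Its level was also highest for *Th* (3.53), the catecholamine enzyme of the adrenal medulla, *Akr1b7* (3.70), *Akr1c18* (4.99), *Adh1* (6.17), *Ces1f* (5.91), *Cyp4a12a* (0.29), *Cyp4a12b* (0.96), *Timd2* (2.23) and *Gclc* (4.97). Lowest in it were *Prlr* (2.62), *Serpina6* (4.56), *Serpina10* (-0.12), *Hsd17b14* (0.92), *Mt1* (6.49) and *1700028J19Rik* (1.97). Male-biased and adrenal genes stood apart together in this kidney but not in moderate kidney 1, which was high for *Akr1b7* (4.94) and *Th* (4.12) with a male-biased score of -0.06.

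In mild kidney 1 the adipose score (-7.76) and *Cfd*, the adipokine adipsin (-4.43), were far below the others, and *Cdkn1c* (4.50) and *Itgam*, the integrin of myeloid cells (5.85), above them. Mild kidney 2 was highest for *Lcn2* (1.27), for the markers of kidneys high in *Lcn2* (score 0.88) and for leukocyte markers (0.24), and lowest for proximal tubule genes (-0.22).

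Moderate kidney 5 stood apart downwards for the matrix score (-1.13), *Col1a2* (4.17), *Sparc* (7.45), the chemokine *Cx3cl1* (3.05) and *Alas2*, of heme synthesis in red cell precursors (1.72), and upwards for *Nphs1* (0.99) and the clock output *Tef* (6.99). Moderate kidney 2 was apart for *Fosb* (-0.81, the highest) and *Rad51ap2* (-4.55, the lowest).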

How the results depend on the processing

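Of the 38 alternatives, limma's array quality weights moved the number of genes called most. These genes, 0 with equal weights, numbered 221 with 1 weight per array, 38 with weights fitted gene by gene (added after the data were seen), 1 in the fit on mild and moderate kidneys alone and 2 without the arrays at the ends of the share above background (moderate kidney 3 and severe kidney 4, also added). Leaving out single kidneys gave 0 to 2, with 2 without moderate kidney 3 and 1 without severe kidney 5. The cause of these changes was not tested. Genes at 2-fold and an unadjusted p under 0.05 (417, with 280 higher and 137 lower) numbered 114 with normexp (87 and 27), 137 in the authors' normalized table (104 and 33), 138 with the filter on all 24 arrays (87 and 51), 847 with array weights (553 and 294) and 701 with weights gene by gene (453 and 248). The lower ones were 258 without both kidneys high in adrenal genes and 299 without the arrays at the ends of the share above background. Leaving out single kidneys gave 283 to 889 in all, 174 to 710 higher and 98 to 300 lower, with the highest without mild kidney 1, 700 without moderate kidney 4 and 300 lower without moderate kidney 3.

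The count of genes wider in moderate kidneys (16) was 61 with quantile normalization, 48 with median scaling, 105 in the authors' table, 135 with the filter on all arrays, 174 on the 12 kidneys alone, 25 with weights gene by gene, 134 without both kidneys high in adrenal genes and 415 without the arrays at the ends of the share above background. It was 0 with slide as a block (lowest adjusted p 0.453 from limma). Leaving out each kidney gave 4 to 787, more than 1.5 times off in each of the 24 omissions, so this count depends on every kidney. The larger median SD is a description without a test. Its values without single kidneys or with slide as a block are not given here.

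Replicate numbers did not pair the kidneys: deviations of same-numbered mild and moderate kidneys correlated between -0.16 and 0.24, over 0.1 in 1 of 5 pairs, and 0 moderate kidneys correlated best with their own number. With a replicate block 149 genes were higher at 2-fold and an unadjusted p under 0.05, and 0 genes were wider (lowest adjusted p 0.0659 from limma). That block brought the list counts at an unadjusted p under 0.05 to 1 of 18 urothelial genes and 1 of 13 of the study's, 1 injury marker, 1 smooth muscle gene, 5 acute-phase genes, 5 markers of kidneys high in *Lcn2*, 7 thick limb genes lower, 2 podocyte genes lower and 0 metalloproteinases. Array weights raised them to 10 injury, 14 acute-phase, 8 leukocyte, 8 oxidative stress, 7 complement, 7 retinoic acid and 6 chemokine genes. Those weights were 1.69, 0.60, 0.48, 1.03 and 0.45 for moderate kidneys 1 to 5. Kidneys 1 and 4, both high in *Lcn2*, thus counted most among the moderate kidneys.

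List medians moved beyond the kidneys' spread in 40 of 1292 values. With array weights they were 4.09 for the markers of kidneys high in *Lcn2*, 2.29 for acute-phase, -0.61 for clock, -0.019 for fatty acid oxidation, 0.71 for metalloproteinase, 0.47 for oxidative stress, 0.86 for smooth muscle and 0.64 for injury genes. Weights gene by gene gave 3.49, 0.43 for oxidative stress and 0.73 for smooth muscle genes. Without both kidneys high in adrenal genes they were 1.99 for the markers of kidneys high in *Lcn2*, -0.081 for TGF-beta, 0.10 for oxidative stress and 0.23 for injury genes. The filter on all arrays gave 0.25 for chemokines, 0.025 for metalloproteinases and -0.005 for Y-linked genes, which were at -0.022 with normexp and -0.016 without a filter. Leukocyte markers were at 0.23 with normexp and 0.25 in the authors' table. Leaving out single kidneys gave 1.94 to 3.6 for the markers of kidneys high in *Lcn2*, 0.87 to 2.03 for acute-phase, 0.026 to 0.68 for matrix, 0.31 to 0.54 for complement, -0.13 to -0.005 for fatty acid oxidation, 0.32 to 0.62 for leukocyte, 0.14 to 0.66 for metalloproteinase, -0.12 to 0.084 for proximal tubule, -0.15 to 0.014 for respiratory chain, 0.062 to 0.37 for retinoic acid, -0.053 to 0.23 for steroid and 0.24 to 0.64 for injury genes. No named gene with an unadjusted p under 0.05 changed sign in any alternative.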

Other observations

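With limma's array quality weights the genes of lowest p were nearly all lower in moderate kidneys, and they were not on the lists above. *Vipr1*, the receptor for vasoactive intestinal peptide, stood at -0.91, -0.06, -0.39, -0.52 and -0.41 in moderate kidneys and between 0.07 and 0.95 in mild kidneys (median 0.53), without overlap. Its second probe gave -0.03 against -0.94 for the brighter. *Dusp15*, a dual-specificity phosphatase, stood at -3.07, -2.63, -2.57, -2.82 and -2.80 against -2.09 to -1.82 (median -1.96), also without overlap, and its second probe gave -0.66. *Chst3*, a sulfotransferase of chondroitin sulfate, stood at -0.38, 0.50, 0.67, -0.20 and 0.81 against 0.78 to 2.32 (median 1.83). *Scn4b*, a sodium channel subunit, stood at 1.89, 2.70, 2.65, 1.88 and 2.94 against 2.83 to 3.82 (median 3.22). *Egfl6*, a secreted matrix protein, differed by -1.20 (SE 0.29), and *Gsto2*, a glutathione transferase, by -0.70 (SE 0.18). With equal weights each of these had an adjusted p of 0.498 or more.

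Red blood cell genes were higher for 4 of 4 members tested (median 0.36), and *Hba-a1*, a hemoglobin chain, stood at 8.32, 8.80, 8.72, 8.48 and 8.11 against 7.98 to 8.43. Among cornified envelope genes *Lor*, loricrin, differed by -0.52 (SE 0.17), opposite in sign to *Sprr2f* and *Sprr2g*.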
